A study of Salmo salar with 45 samples.

Results

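The genes *plvapb* (ENSSSAG00000040305), *pecam1a* (ENSSSAG00000003562) and *vwf* (ENSSSAG00000101168), 3 genes of the blood vessel lining, were followed through the distal intestine of 45 Atlantic salmon. They were chosen by their identifiers, as 3 of the 69389 genes in the count tables. All 3 had fragments in all 45 fish and were among the 31729 genes that passed the filter on low counts. The fish were pre-smolts kept in fresh water, with 5 diets and 9 fish per diet. CD was the control feed without additive. Fish fed LP20, LP100 and LP500 received 20, 100 and 500 mg per kg feed of Feed LP20, a product of heat-killed *Lactiplantibacillus plantarum* strain L-137. MG was a positive control with β-glucan at 2 g per kg feed. The 9 fish of a diet came from triplicate tanks, and their labels form 3 runs of 3 consecutive numbers, which no source states to be tanks. Where fish share a tank, p-values over fish are too small, so values per label run are given beside the calls they end.

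Endothelial cells line all blood vessels, and in the gut they form the capillaries under the epithelium that take up absorbed nutrients. Plvap builds the thin diaphragms across the pores and caveolae of such capillaries. Pecam1 (CD31) is an adhesion molecule of the contacts between endothelial cells and, in mammals, is also found on platelets and leucocytes. Vwf is a very large secreted protein which in mammals is stored in endothelial cells and platelets and ties platelets to a damaged vessel wall. In bulk RNA, a lower share of endothelial cells and less RNA of these genes per cell cannot be told apart.

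The 3 genes were lowest in fish fed CD and had higher means in all 4 other diets. In fish fed LP500 all 3 passed the test against CD, with 2.71-fold more *plvapb*, 3.29-fold more *pecam1a* and 5.06-fold more *vwf*. Of all tested genes, 7.45% were called higher there. In fish fed LP100, *plvapb* (2.97-fold) and *pecam1a* (3.12-fold) passed and *vwf* did not, beside 3.6% of all tested genes called higher. Neither LP100 call held with counts summed per label run. Without label run 1 of CD no LP500 call of the 3 was left (adjusted p = 0.142, 0.147 and 0.0961 by edgeR). In fish fed LP20 or MG no gene of the 3 passed, nor did any other tested gene (0%). At least 1 fish of every diet lay at or under the highest fish of CD, so no diet was separated from CD in full for any of the 3.

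In the assembly Ssal_v3.1, *plvapb* lies on chromosome 10 from 50454586 to 50459337 on the minus strand, with 6 exon blocks and 3053 bp of exon. *Pecam1a* lies on chromosome 6 from 32020595 to 32029249 on the minus strand, with 14 exon blocks and 2508 bp of exon. *Vwf* lies on chromosome 10 from 125650099 to 125819568 on the plus strand, with 59 exon blocks and 10425 bp of exon. The symbols came from RefSeq genes at the same position, which shared 0.996, 0.992 and 0.995 of the joint span, and no exon of the 3 overlapped an exon on the other strand. The only other gene matched by position to one of the 3 names was *pecam1b* (ENSSSAG00000046750), on chromosome 2 from 55779215 to 55800747 on the plus strand, with 0.766 of the joint span shared. Fragments could have been split between *pecam1a* and *pecam1b* if their sequences are alike, which was not tested.

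Each fish had between 9660750 and 22377591 fragments on genes (median 14634308), and no pair of libraries was alike within sampling noise. The markers of the absorptive epithelium were the most abundant of the lists used here, with a mean over all fish of 3393 counts per 1000000 fragments (CPM) for *cubn*, the cubilin receptor, and 1164 CPM for *cdh17*, liver-intestine cadherin. The 3 vessel genes were far less abundant. Their means over the 45 fish were 9.65 CPM for *plvapb*, 3.56 CPM for *pecam1a* and 2.65 CPM for *vwf*. Per kb of exon, the scale on which genes can be compared, the mean levels were 3.16, 1.42 and 0.254 CPM per kb, higher than in 61.5%, 41.5% and 9.73% of the tested genes. The order of *plvapb*, *pecam1a*, *vwf* per kb was the same in the means of all 5 diets. These are few fragments: a fish had from 30 to 428 of *plvapb* (median 147), from 2 to 131 of *pecam1a* (median 51) and from 2 to 189 of *vwf* (median 25). Counting error alone was thus 8.25%, 14% and 20% at the median, and 70.7% in the fish with 2 fragments of *pecam1a* or of *vwf*.

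*Plvapb* was the most abundant of the 3. In fish fed CD it had a lowest value of 2.59, a median of 3.45 and a highest value of 9.56 CPM, and the mean was 4.34 ± 2.38 CPM (SD, n = 9). The highest 2 fish of CD, A073 with 9.56 CPM and A075 with 7.03 CPM, stood above the other 7, which lay at or under 3.95 CPM. In fish fed LP20 the lowest, median and highest values were 3.50, 11.1 and 19.3 CPM (mean 10.1 ± 5.25, SD, n = 9). In fish fed LP100 they were 2.84, 12.9 and 28.9 CPM (mean 12.9 ± 6.99, SD, n = 9). In fish fed LP500 they were 2.27, 11 and 22.8 CPM (mean 11.8 ± 6.02, SD, n = 9). The ranges overlapped that of CD in every diet. Above the second highest fish of CD lay 6 of 9 fish of LP20, 8 of 9 of LP100 and 8 of 9 of LP500. Above the highest lay 5, 7 and 6 of 9 in the same order. In fish fed MG the lowest, median and highest values were 2.86, 7.29 and 15.3 CPM (mean 9.09 ± 5.30, SD, n = 9). The MG fish lay apart, with 4 at 13.8 to 15.3 CPM and 5 at 2.86 to 7.29 CPM. All 3 fish of the label run A043-A045 were among the high ones.

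**Figure D1:**
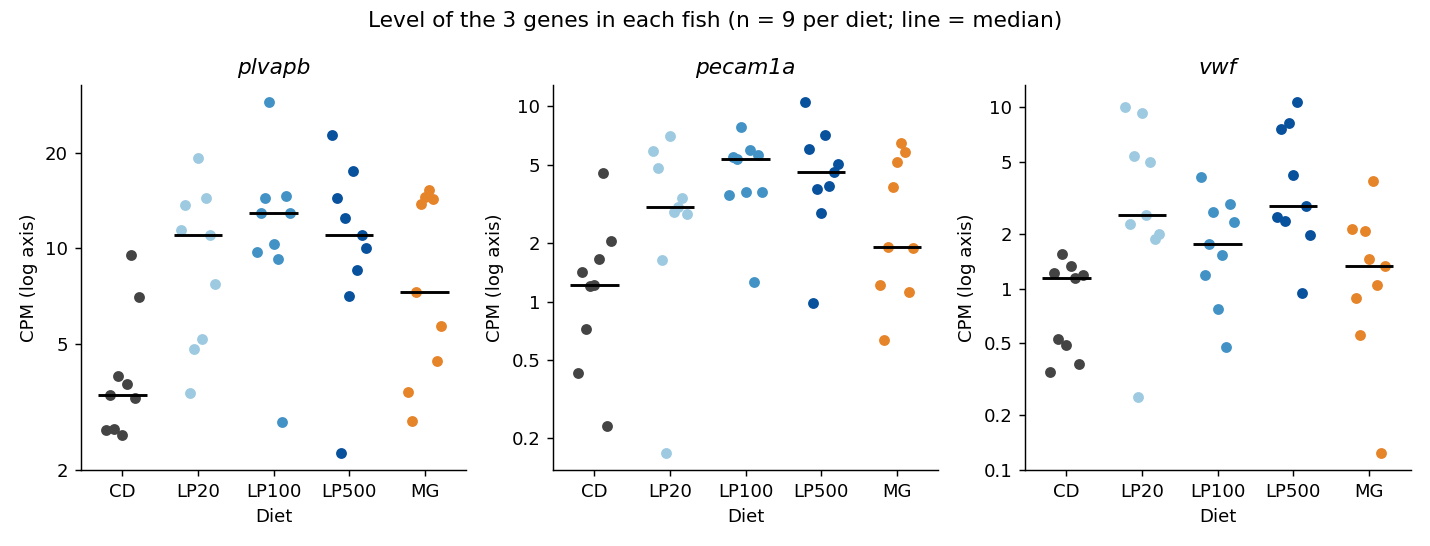
The panels plot the CPM of *plvapb*, *pecam1a* and *vwf* (vertical log axis) in each fish by diet, with 9 points per diet and a line at the median. The median of *plvapb* is 3.45 CPM in CD and 11 CPM in LP500, but at least 1 fish of each other diet lies at or under the highest fish of CD in every panel.

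*Pecam1a* followed *plvapb* closely from fish to fish. In fish fed CD it had a lowest value of 0.230, a median of 1.21 and a highest value of 4.52 CPM (mean 1.49 ± 1.27, SD, n = 9), the highest again in A073. In fish fed LP20 the values were 0.169, 3.03 and 7.00 CPM (mean 3.51 ± 2.11, SD, n = 9), and the lowest of these was the lowest of all 45 fish (A055). That fish held 2 fragments of *pecam1a* beside 4.80 CPM of *plvapb*. In fish fed LP100 the lowest, median and highest values were 1.26, 5.36 and 7.82 CPM (mean 4.71 ± 1.90, SD, n = 9). In fish fed LP500 they were 0.983, 4.59 and 10.4 CPM (mean 4.97 ± 2.72, SD, n = 9). In both diets 8 of 9 fish lay above the second highest fish of CD, and 5 of 9 above the highest. In LP20 it was 7 of 9 and 3 of 9. In fish fed MG the values were 0.635, 1.90 and 6.5 CPM (mean 3.12 ± 2.25, SD, n = 9), with 4 of 9 fish above the second highest of CD.

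*Vwf* was highest in LP20 and LP500 by its means. In fish fed CD the lowest, median and highest values were 0.346, 1.15 and 1.55 CPM (mean 0.908 ± 0.465, SD, n = 9), which is 4 to 18 fragments a fish. In A073, the CD fish with the most *plvapb* and *pecam1a*, *vwf* was at the median of 1.15 CPM. In fish fed LP20 the values were 0.253, 2.54 and 10.1 CPM (mean 4.30 ± 3.44, SD, n = 9), and in fish fed LP500 they were 0.940, 2.86 and 10.6 CPM (mean 4.58 ± 3.37, SD, n = 9). In each of these diets 8 of 9 fish lay above all fish of CD. The exceptions were A055 in LP20 and A067 in LP500. In fish fed LP100 the values were 0.473, 1.77 and 4.12 CPM (mean 1.97 ± 1.15, SD, n = 9), with 5 of 9 fish above all fish of CD. In fish fed MG they were 0.124, 1.34 and 3.90 CPM (mean 1.5 ± 1.11, SD, n = 9), with 3 of 9 above. Within LP500 the 3 label runs differed, with mean levels of 4.14, 7.68 and 1.92 CPM of *vwf*.

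Against CD, edgeR's quasi-likelihood test was fitted on all 45 fish, with Benjamini-Hochberg adjustment over all 31729 genes. For LP500 it called all 3 genes higher, beside 7.45% of all tested genes called higher and 3.21% lower (2365 and 1020 genes, or 2911 and 389 with library totals in place of TMM scaling). The log2 fold change was 1.44 ± 0.38 (SE) for *plvapb* (adjusted p = 0.0120), 1.72 ± 0.46 for *pecam1a* (adjusted p = 0.0132) and 2.34 ± 0.51 for *vwf* (adjusted p = 0.00561). Fish A013 of LP500 stood apart, with the most *plvapb* and *pecam1a* of its diet, the highest smooth muscle value and the lowest enterocyte value. Without it the LP500 log2 fold changes were 1.29, 1.54 and 2.45 (adjusted p = 0.0422, 0.0458 and 0.0206), and without A073 of CD they were 1.72, 2.19 and 2.42 (adjusted p = 0.00290, 0.00179 and 0.00227). Without label run 1 of CD (A001-A003) no LP500 call was left (adjusted p = 0.142, 0.147 and 0.0961), and without label run 2 of CD (A049-A051) only *vwf* was left (adjusted p = 0.0673, 0.0578 and 0.0306). With counts summed per label run all 3 calls held (adjusted p = 0.0362, 0.0357 and 0.0270).

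For LP100 2 of the 3 genes were called higher, beside 3.6% of all tested genes called higher, 0.473% lower and 4.07% in either direction. The log2 fold change was 1.57 ± 0.38 for *plvapb* (adjusted p = 0.0222) and 1.64 ± 0.46 for *pecam1a* (adjusted p = 0.0348), and it was 1.12 ± 0.51 for *vwf* (adjusted p = 0.219). Neither call held with counts summed per label run, where the adjusted p was 0.0593 for *plvapb* and 0.0698 for *pecam1a*. Both were also lost without label run 1 of CD (adjusted p = 0.182 and 0.214), label run 2 of CD (0.115 and 0.135), label run 1 of LP100 (0.0828 and 0.106) or label run 2 of LP100 (0.122 and 0.166), and both without fish A037 of LP100 (0.0595 and 0.0773).

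For LP20 none of the 3 genes was called, nor any other gene (0% of the tested genes in either direction, with 4086 genes at an unadjusted p under 0.05, where DESeq2 on all 45 fish called 163 higher and 20 lower). Without A073 of CD, edgeR called 498 genes higher and 26 lower for LP20. The log2 fold changes were nevertheless of the same sign, at 1.22 ± 0.38 for *plvapb* (adjusted p = 0.156), 1.23 ± 0.46 for *pecam1a* (adjusted p = 0.225) and 2.25 ± 0.51 for *vwf* (adjusted p = 0.0868). For *vwf*, DESeq2 on all 45 fish gave an adjusted p of 0.00867. Without A073 of CD, edgeR gave adjusted p of 0.0415 for *plvapb*, 0.0513 for *pecam1a* and 0.0342 for *vwf*, and without A055 of LP20 it gave 0.0382 for *vwf*. For MG, the share of genes called was again 0% in either direction (2265 genes at an unadjusted p under 0.05, and 0 called by DESeq2 on all 45 fish), with log2 fold changes of 1.07 ± 0.38 for *plvapb* (adjusted p = 0.630), 1.05 ± 0.46 for *pecam1a* (adjusted p = 0.657) and 0.72 ± 0.52 for *vwf* (adjusted p = 0.817). The 95% intervals for MG ran from 0.30 to 1.83, from 0.12 to 1.98 and from -0.33 to 1.77. Those of *plvapb* and *pecam1a* held their LP500 value and that of *vwf* did not, which is no test of MG against LP500. In that test none of the 3 was called, with an adjusted p of 0.277 for *vwf* by edgeR.

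**Figure D2:**
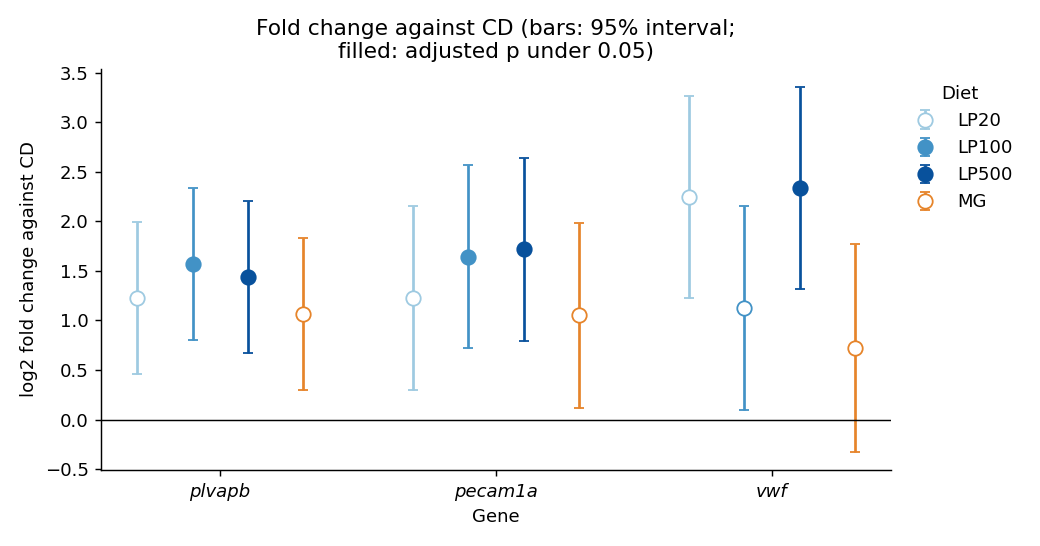
The points are log2 fold changes against CD of *plvapb*, *pecam1a* and *vwf* in LP20, LP100, LP500 and MG with their 95% intervals, filled where the adjusted p is under 0.05. For *plvapb* and *pecam1a* the 4 diets lie between 1.05 and 1.72, whereas *vwf* is at 2.25 and 2.34 in LP20 and LP500 and at 1.12 and 0.72 in LP100 and MG.

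The exact permutation test of 9 against 9 fish on mean log2 CPM, two-sided and not adjusted over the 12 tests, took each gene by itself. For LP500 the exact p was 0.00448 for *plvapb*, 0.00230 for *pecam1a* and 0.000329 for *vwf*. For LP100 the exact p was 0.00128, 0.00123 and 0.0276, and for LP20 0.00621, 0.0660 and 0.00597 in the same order. For MG the exact p was 0.0288 for *plvapb*, 0.0744 for *pecam1a* and 0.320 for *vwf*. In the 36 fish fed CD or an inclusion level, the slope per step in the order CD, LP20, LP100, LP500 was 0.45 ± 0.13 (log2, SE) for *plvapb* (adjusted p = 0.0232) and 0.53 ± 0.14 for *pecam1a* (adjusted p = 0.0167), and 0.48 ± 0.18 for *vwf* (adjusted p = 0.0859). Hence 2 of the 3 were called on the slope, beside 7.33% of the 31213 genes tested there called higher and 3.38% lower (2287 and 1054 genes, or 3095 and 474 with library totals). Both were lost without fish A013 (adjusted p = 0.0642 and 0.0530) and without label run 1 (0.172 and 0.130) or 2 (0.109 and 0.0728) of CD. The slope of *vwf* was called without fish A019 (adjusted p = 0.0254) or A056 (0.0327) of LP20, without label run 1 (0.0172) or 2 (0.0423) of LP20 and without label run 3 of LP500 (0.0472). A step from CD to the inclusion levels, without a further rise between them, also gives a positive slope. *Plvapb* was at 1.22, 1.57 and 1.44 against CD in LP20, LP100 and LP500. A test over all 5 diets together called 13 genes (0.041%) and none of the 3 (adjusted p = 0.0716 for *plvapb*, 0.103 for *pecam1a* and 0.0502 for *vwf*).

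In order of their means, *plvapb* ran from LP100 over LP500, LP20 and MG to CD, *pecam1a* from LP500 over LP100, LP20 and MG to CD, and *vwf* from LP500 over LP20, LP100 and MG to CD. No neighbours in these orders differed by the test. In the 6 comparisons without CD, none of the 3 genes was called, nor any other gene (0% in each). The log2 differences over 1 were all those of *vwf*. Its level was lower in LP100 than in LP20 (log2 fold change -1.12 ± 0.47, adjusted p = 0.671 by edgeR) and higher in LP500 than in LP100 (1.21 ± 0.47, adjusted p = 0.295 by edgeR). Against MG, *vwf* differed by 1.53 ± 0.48 in LP20 (adjusted p = 0.9995 by edgeR) and by 1.62 ± 0.48 in LP500 (adjusted p = 0.277 by edgeR). None of these 4 differences passed. For *plvapb* and *pecam1a*, the 6 log2 differences between the diets other than CD were between -0.13 and 0.67, with adjusted p of 0.523 or higher.

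The diets held only part of the spread. Of the variance of log2 CPM over the 45 fish, 29.9% lay between diets for *plvapb*, 30.1% for *pecam1a* and 34.9% for *vwf*, and the SD within a diet was 0.85, 1.06 and 1.08 on the log2 scale. Such a share between diets is positive even where diets have no effect, and differences between tanks enter it. The highest fish had 12.7 times the *plvapb* of the lowest, 62 times the *pecam1a* and 85.4 times the *vwf*, although the lowest fish of the last pair rest on 2 fragments. The fish lowest for *plvapb* was also the lowest for *pecam1a* in 3 of 5 diets, with A061 in LP100, A015 in LP500 and A008 in MG. In CD the lowest fish were A050 for *plvapb* and A074 for *pecam1a*, and A050 was at the CD median of *pecam1a*, and in LP20 they were A021 and A055. A061 was also the lowest of LP100 for *vwf*, whereas A015, with 2.35 CPM of *vwf*, was above all fish of CD.

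Over the 45 fish, log2 CPM of *plvapb* and *pecam1a* were correlated with r = 0.876 and rho = 0.905 (permutation p = 1e-05 for each, the smallest that 100000 permutations can give; adjusted over the 3 pairs, 1.5e-05 and 3e-05). With the diet means removed r was 0.832, without the 2 fish farthest from the median of *plvapb* it was 0.878, and within the diets (n = 9 each) it ran from 0.700 in LP20 to 0.979 in MG. *Vwf* was less closely tied to the other 2. For *plvapb* and *vwf*, r was 0.557 and rho 0.572 (permutation p = 6e-05 and 8e-05, adjusted 6e-05 and 8e-05), with 0.470 after removal of the diet means, 0.572 without the 2 farthest fish and 0.370 to 0.658 within diets. For *pecam1a* and *vwf*, r was 0.642 and rho 0.579 (permutation p = 1e-05 and 8e-05, adjusted 1.5e-05 and 8e-05), with 0.598, 0.572 and 0.224 to 0.814 in the same order. All 3 genes share the library and its depth in each fish, and *vwf* has the fewest fragments. The permutations moved fish freely across diets and tanks, so differences between diets enter these p. With the diet means removed, the permutation p, not adjusted, was 1e-05, 0.00108 and 2e-05 for the 3 pairs in the order above.

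**Figure D3:**
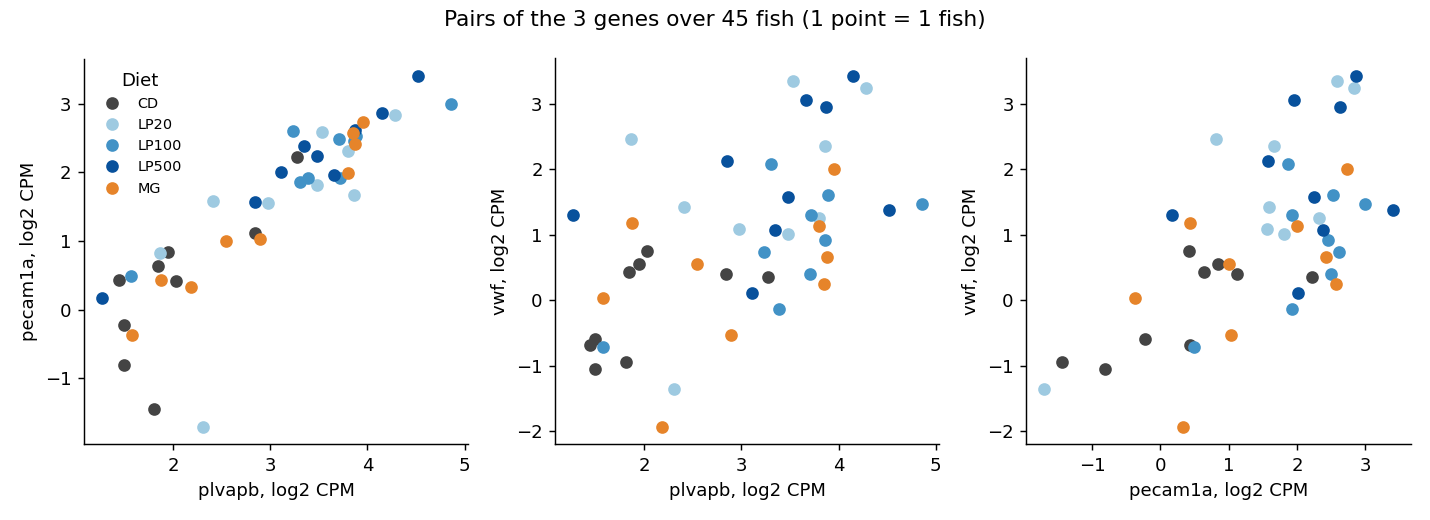
Each point is 1 of 45 fish, placed by the log2 CPM of a pair of genes on the axes and coloured by diet. *Plvapb* and *pecam1a* lie along a line (r = 0.876), while *vwf* spreads more widely against *plvapb* (r = 0.557) and *pecam1a* (r = 0.642).

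The log2 ratio of 2 genes within a fish shows the same separation, as a description with no test. For *pecam1a* over *plvapb* the mean ratio was -1.67 ± 0.73 (SD, n = 9) in CD, -1.67 ± 0.97 in LP20, -1.36 ± 0.37 in LP100, -1.23 ± 0.21 in LP500 and -1.60 ± 0.27 in MG. The ratio thus stayed within 0.44 between diet means. For *vwf* over *pecam1a* the mean ratio was -0.44 ± 0.72 in CD, 0.15 ± 0.85 in LP20, -1.29 ± 0.76 in LP100, -0.24 ± 1.25 in LP500 and -0.97 ± 1.1 in MG. In LP500 that ratio ran from -2.02 in A013, the fish with the most *pecam1a*, to 1.15 in A015, the fish with the least.

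Each member was compared with 6531 other genes that had a mean of at least 1 CPM and a symbol other than a LOC number. Of the 30322 genes named by position, 8775 had such a symbol. The genes most like each member over the 45 fish were taken by Pearson's r on log2 CPM with the diet means removed. For *plvapb* they were *acvrl1* (r = 0.930), a receptor of the TGF-beta family in endothelium, *mmrn2a* (0.928), an endothelial matrix protein, *plpp3* (0.897), a lipid phosphatase, *col4a5* (0.896), a chain of basement membrane collagen with 12% of its exon inside exons on the other strand, and *dennd2b* (0.896). For *pecam1a* they were *pgs2* (0.919), *c7a* (0.903), a complement component, *col4a1* (0.900), a basement membrane collagen chain, *prelp* (0.900) and *lum* (0.884), the last 2 being proteoglycans of connective tissue. For *vwf* the highest values were lower: *gucy1b1* (0.655), a subunit of the nitric oxide receptor, *cfd* (0.644), with 57.1% of its exon inside exons on the other strand, *rabp* (0.615), *spns2* (0.610), an exporter of sphingosine 1-phosphate, and *bcl6b* (0.610). Of the 6531 genes, 97 had an r above 0.8 with *plvapb*, 80 with *pecam1a* and 0 with *vwf*. The lowest values were -0.798 (*abcc12*) and -0.792 (*iqgap2*) for *plvapb*, -0.733 (*prdm2a*) and -0.701 (*mtmr8*, 45.6% of its exon inside exons on the other strand) for *pecam1a*, and -0.581 (*cdca4*) and -0.571 (*mars2*) for *vwf*.

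Other endothelial genes were taken from a list of 39 names of vascular endothelium, most of which matched no gene. In this list 18 genes were matched and 14 passed the filter on low counts. The 4 others, *angpt2b*, *fli1*, *sox18* and *tal1*, had means under 0.4 CPM over all fish. *Fli1* went the other way, with a mean of 0.419 CPM in CD and means of 0.207 to 0.261 CPM in the other diets. *Angpt2b*, *sox18* and *tal1* had their lowest mean in CD. None of these was tested in the main fit. Against CD the numbers called higher, the 3 genes included, were 0 of 14 for LP20, 7 of 14 for LP100, 10 of 14 for LP500 and 0 of 14 for MG, beside 0%, 3.6%, 7.45% and 0% of all tested genes, and none was lower. With counts summed per label run, where 16 genes of the list were tested, 0 were called for LP100 (lowest adjusted p = 0.0568), beside 12 of all genes called higher, and 10 for LP500. The median log2 fold change of the 14 was 1.17, 1.24, 1.58 and 0.97 in that order, where the median of all tested genes was between -0.02 and 0.00. With no filter on low counts, 9 of the 18 were called for LP500 and 6 for LP100, and 17 of the 18 were positive in each diet. The share of all genes called higher with no filter in these diets, or for LP500 per label run, is not given here. Those counts of the list thus stand without a share beside them. On the slope 9 of 14 were called, beside 7.33% of all genes tested there. Without label run 1 of CD, 3 of all tested genes were called higher for LP500, so at most 3 of the 10 LP500 calls can have held there. Per kb, the most abundant of the list were *acvrl1* (3.44 CPM per kb), *plvapb*, *mmrn2a* (2.63), *pecam1a* and *lmo2* (1.22), a transcriptional cofactor of blood and vessel cells.

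Of the junction and adhesion genes, *pecam1b* had means of 0.649 ± 0.218 CPM in CD and 2.32 ± 1.33 CPM in LP500 (SD, n = 9), a log2 fold change of 1.83 ± 0.42 (adjusted p = 0.00620). It lay at 1.21 ± 0.42 for LP100 (adjusted p = 0.0879), so its partner *pecam1a* was called there and it was not, a difference that was not tested. *Esama*, an adhesion molecule of endothelial contacts, rose in LP500 by 1.88 ± 0.45 (adjusted p = 0.00728) and in LP100 by 1.58 ± 0.45 (adjusted p = 0.0360). Of the receptors, *flt1*, a receptor of vascular endothelial growth factor, rose by 1.84 ± 0.49 in LP500 (adjusted p = 0.0121) and by 1.91 ± 0.48 in LP100 (adjusted p = 0.0254), *adgrl4*, an adhesion receptor of endothelium, by 1.66 ± 0.40 (adjusted p = 0.00822) and 1.57 ± 0.40 (adjusted p = 0.0264), and *acvrl1* by 0.78 ± 0.21 (adjusted p = 0.0131) and 0.83 ± 0.21 (adjusted p = 0.0250). Of the matrix genes, *mmrn2a* rose by 1.5 ± 0.40 in LP500 (adjusted p = 0.0125) and by 1.64 ± 0.40 in LP100 (adjusted p = 0.0223). With counts summed per label run none of these LP100 calls held. *Lmo2*, with means of 1.83 ± 0.641 CPM in CD and 2.70 ± 0.804 CPM in LP500 (SD, n = 9), had a log2 fold change of 0.56 ± 0.22 in LP500 (adjusted p = 0.0858).

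**Figure D4:**
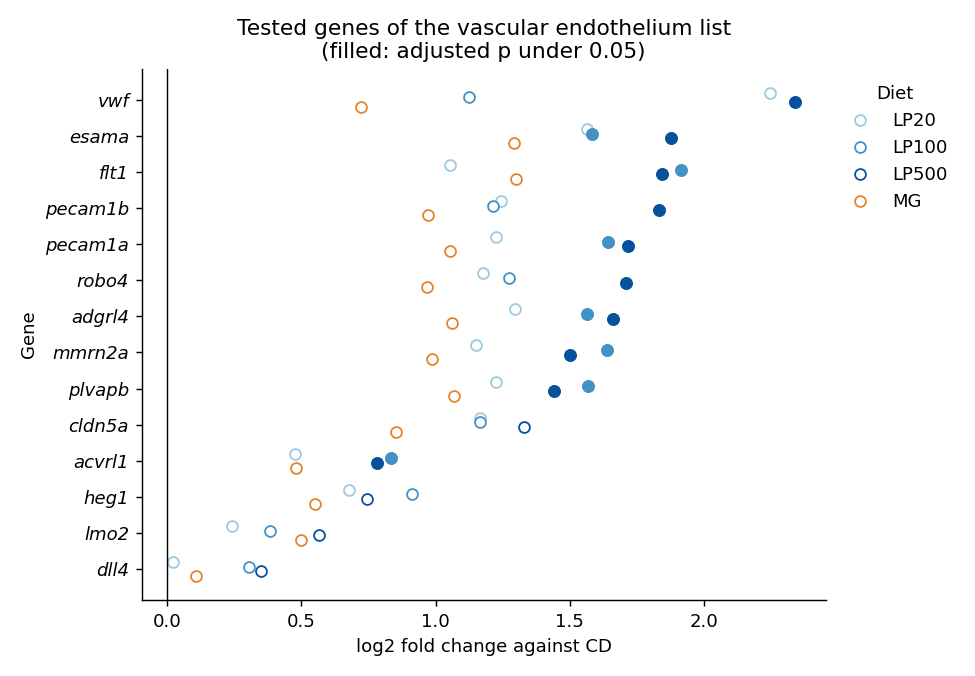
Each row is 1 of the 14 tested genes of the vascular endothelium list and each point its log2 fold change against CD in a diet, filled where the adjusted p is under 0.05. All points lie above 0, 10 genes are filled for LP500 and 7 for LP100, and none for LP20 or MG, with *vwf* as the gene in which LP20 and LP500 lie far to the right of LP100 and MG.

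The markers of other tissue layers moved with the 3 genes. To give each list 1 value per fish, log2 CPM of its tested genes was centred on the mean of all 45 fish and averaged. The other 11 genes of the endothelium list had an r over fish of 0.955 with *plvapb*, 0.907 with *pecam1a* and 0.619 with *vwf* (permutation p of 2e-05 or less, adjusted over 15 relations to 3.75e-05 or less; rho = 0.947, 0.940 and 0.604). The 4 fibroblast genes had 0.922, 0.923 and 0.647 (permutation p of 2e-05 or less, adjusted to 3.75e-05 or less; rho = 0.872, 0.911 and 0.635), and the 3 smooth muscle genes 0.8, 0.821 and 0.560 (permutation p of 4e-05 or less, adjusted to 6.67e-05 or less; rho = 0.808, 0.852 and 0.575). Without the 2 fish farthest from the median of the gene, r with the fibroblast list was 0.912, 0.943 and 0.622. Other pairs of fish were not left out. With the diet means removed, r with the fibroblast list was 0.900, 0.894 and 0.548. It was then 0.947, 0.874 and 0.527 with the endothelium list, and 0.735, 0.749 and 0.447 with the smooth muscle list. For *vwf* the permutation p, not adjusted, was then 9e-05, 0.00023 and 0.00231 for the fibroblast, endothelium and smooth muscle lists. For *plvapb* and *pecam1a* it was 1e-05 with each of these lists. Within diets, r with the fibroblast list ran from 0.784 to 0.965 for *plvapb*, from 0.791 to 0.977 for *pecam1a* and from 0.189 to 0.715 for *vwf*. The enterocyte list went the other way for *plvapb* (r = -0.394, rho = -0.374, permutation p = 0.00692, adjusted 0.0104) and *pecam1a* (r = -0.313, rho = -0.309, permutation p = 0.0358, adjusted 0.0488, but 0.0529 for rho), with within-diet values from -0.670 to 0.104 and from -0.635 to 0.176, and for *vwf* r was -0.105 (permutation p = 0.494). The enterocyte value weighed its 5 genes equally, so the scarce *lrp2a* (mean 0.581 CPM over all fish) and *slc15a1* counted as much as *cubn*. In LP20, *slc15a1* had a median of 0.502 CPM and a highest value of 118.8 CPM. The value did not simply follow the summed level of the list. The lowest summed level was 4299 CPM in LP20 and 4226 CPM in LP500, but the lowest values were -0.4 and -1.13. With the leucocyte list r was 0.099, 0.010 and 0.101.

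**Figure D5:**
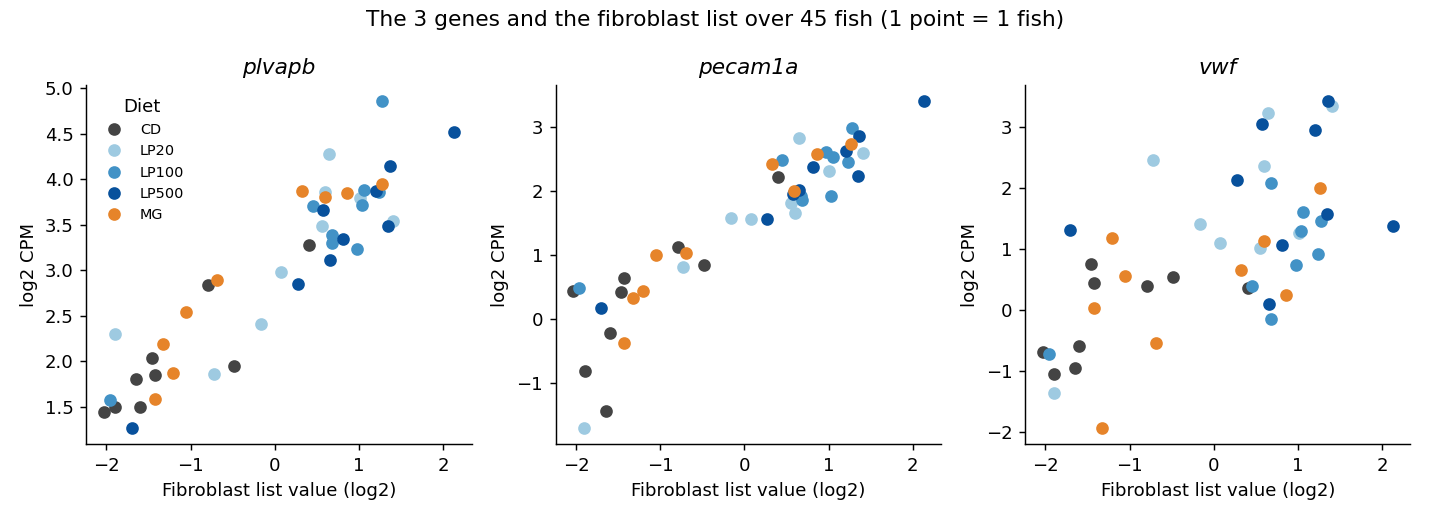
Each point is 1 of 45 fish, with the value of the fibroblast list on the horizontal axis (log2, relative to the mean of each gene over all fish) and the log2 CPM of *plvapb*, *pecam1a* or *vwf* on the vertical axis, coloured by diet. *Plvapb* (r = 0.922) and *pecam1a* (r = 0.923) follow the list and *vwf* does so less closely (r = 0.647). On the left lie 8 of the 9 CD fish, together with fish of each other diet.

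By count, all 4 fibroblast genes were called higher in LP100 and in LP500, beside 3.6% and 7.45% of all tested genes. With counts summed per label run, 0 of the 4 were called in LP100 (lowest adjusted p = 0.0567), beside 12 of all genes called higher. In LP500 4 were called per label run, a count with no share of all genes beside it here. Among the 4 were *col1a1a*, the main collagen of connective tissue (log2 fold change 2.29 ± 0.47 in LP500, adjusted p = 0.00518), and *lum* (1.85 ± 0.44, adjusted p = 0.00686). Of the 3 smooth muscle genes 2 were called in LP500, with 1.41 ± 0.34 for *acta2*, smooth muscle actin (adjusted p = 0.00731), and 0.24 ± 0.11 for *smtnb* (adjusted p = 0.144), which did not pass. Of the 3 tested genes of lymphatic and sinusoidal endothelium 2 were called in LP500, the scavenger receptors *stab1* (1.09 ± 0.27, adjusted p = 0.00900) and *stab2* (1.61 ± 0.39, adjusted p = 0.00783). The only pericyte gene matched, *cspg4*, had a log2 fold change of 1.13 ± 0.46 (adjusted p = 0.109). None of the 5 enterocyte genes (*cdh17*, -0.19 ± 0.10; *cubn*, -0.15 ± 0.10) and none of the 4 leucocyte genes (*cd68*, a macrophage marker, -0.23 ± 0.09; *cd3e*, a T cell marker, 0.02 ± 0.10) was called in LP500. Without label run 1 of CD, 3 of all tested genes were called higher for LP500 and 0 lower. At most 3 of the LP500 calls of these lists can thus have held there.

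The summed level of the 4 fibroblast genes was 40.7 to 264 CPM in CD (median 68.4) and 57.9 to 914 CPM in LP500 (median 377), and that of the 3 smooth muscle genes was 279.7 to 757 CPM in CD (median 357) and 382 to 2690 CPM in LP500 (median 852). The summed level of the 5 enterocyte genes was 6275 to 8686 CPM in CD and 4226 to 8263 CPM in LP500. When the smooth muscle value minus the enterocyte value of each fish was added to the fit, none of the 3 genes was called in any diet. Nor was any other gene, so the loss of these calls is not particular to the 3. For LP500 the log2 fold changes were then 0.61 ± 0.32 for *plvapb* (adjusted p = 0.549), 0.80 ± 0.39 for *pecam1a* (adjusted p = 0.521) and 1.95 ± 0.54 for *vwf* (adjusted p = 0.374), and for LP100 they were 0.98 ± 0.31 (adjusted p = 0.251), 1.03 ± 0.38 (adjusted p = 0.336) and 0.85 ± 0.53 (adjusted p = 0.715). The enterocyte value in the covariate weighed the 5 genes of its list equally, whatever their level. The covariate came from the same libraries, and its smooth muscle value itself had means of -0.49 in CD and 0.34 in LP500. It thus takes up part of the contrast between diets. The share of tissue layers in a piece of intestine was not measured, and its part in the levels of the 3 genes was not tested.

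Markers of blood cells were read as well. *Itga2b*, a thrombocyte marker, was the only gene matched of its list and did not pass the filter. It lay at 0 to 0.606 CPM in CD (median 0.0830) and at 0.132 to 0.797 CPM in LP500 (median 0.399). In LP20 it lay at 0 to 0.958 CPM (median 0.303) and in LP100 at 0 to 0.809 CPM (median 0.211). In MG it lay at 0 to 0.802 CPM (median 0.132). *Alas2*, the enzyme of haem synthesis in erythrocytes, was the only gene matched of its list. It lay at 0.430 to 5.16 CPM in CD (median 2.51) and at 2.21 to 3.87 CPM in LP100 (median 2.73). In LP500 it lay at 3.03 to 25.4 CPM (median 5.60), highest in A013. It rose in LP500 (log2 fold change 1.62 ± 0.40, adjusted p = 0.00841), where 3 of all tested genes were called higher without label run 1 of CD. Its log2 fold change was 0.17 ± 0.40 in LP100 (adjusted p = 0.869), 0.94 ± 0.40 in LP20 (adjusted p = 0.278) and 1.11 ± 0.40 in MG (adjusted p = 0.630), and LP500 did not pass the test against LP100 (adjusted p = 0.160), LP20 (0.431) or MG (0.579). Its part in the levels of *vwf* was not tested.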

How the data were processed

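RNA of the distal intestine of 45 Atlantic salmon, 9 for each of 5 diets, was sequenced in read pairs, and libraries were made by a company. The authors aligned the reads to Ssal_v3.1, and the deposited values are raw counts of fragments per Ensembl gene counted with featureCounts (1.5.1 per the file headers) at strand setting 2 (reverse-stranded), without normalization. Diets were taken from the sample records. Symbols were given by position: a RefSeq gene gave its name where the overlap was 0.5 or more of both spans joined (30322 named, and 4728 after a shift of 100000 bp).

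From the counts, 31729 genes passed the filter of edgeR 4.0.16 under R 4.3.3, and TMM library sizes and a quasi-likelihood fit of all 45 fish on diet were used, with Benjamini-Hochberg adjustment at 0.05. CPM uses TMM library sizes, and log2 CPM a prior count of 2. Fish were taken as replicates. Exact permutation tests ran over 48620 divisions of 18 fish, and correlations used 100000 permutations (Python, scipy 1.17.1). DESeq2 1.42.0 and other scalings, filters, label runs, left-out fish and a tissue covariate were alternatives. The script was tested on simulated data.

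The members and lists were chosen with earlier results of these data known. The genes named were the 3 members and *pecam1b*, the 5 most abundant per kb of the vascular endothelium list and up to 8 of it past the threshold, the 2 most abundant per kb of each other list (lymphatic and sinusoidal endothelium, thrombocyte, erythrocyte, smooth muscle, pericyte, fibroblast, leucocyte, enterocyte), and for each member the 5 genes with the highest and 2 with the lowest r. Named besides were *lrp2a* and *slc15a1* of the enterocyte list. The lists hold textbook markers and were matched through symbols, so names without a match were left out. The 7 fibroblast names gave 4 genes, 8 smooth muscle names 3 and 5 pericyte names 1. The 8 enterocyte names gave 5 genes and the 7 leucocyte names 4.

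The records give RNeasy columns for the RNA and the methods of the study give Qiazol. The sequences of the 3 genes are not shown here.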

Additional observations from a re-analysis of the deposited data

Results flagged for a closer look

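In 15 groups of 9 fish (3 genes in 5 diets), 2 had a fish far from the others on the CPM scale by Dixon's 95% critical value, which chance passes in about 1 of 20 independent groups. The 15 groups are not independent, since each fish enters 3 of them. In fish fed LP100, A037 had 28.9 CPM of *plvapb*, and the next fish had 14.7 CPM, a gap of 0.546 of the whole range (0.296 on the log2 scale of the tests). Without A037 the LP100 log2 fold change was 1.33 (adjusted p = 0.0595). In fish fed CD, A073 had 4.52 CPM of *pecam1a*, and the next fish had 2.03 CPM, a gap of 0.580 of the range (0.301 on the log2 scale). Without A073 the log2 fold change of *pecam1a* was 1.69 for LP20, 2.11 for LP100 and 2.19 for LP500 (adjusted p = 0.0513, 0.00487 and 0.00179).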

How the results depend on the processing

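No log2 fold change or slope of the 3 genes changed sign under any alternative, and 982 refits and tests kept the side of the threshold, 17 gained a call and 42 lost one. The exact permutation tests enter these counts by their unadjusted p, a looser threshold than that of the main calls. Many of the 982 had little or no room to change. The slope fit holds no MG fish, so refits without MG fish repeat it unchanged. Refits without fish of a diet outside a comparison reach it only through the filter, the scaling and the shared spread. The 982 is thus no measure of how firm the calls are. The size factors of DESeq2, library totals without TMM, both other filters and edgeR on the 18 fish of a comparison changed no call of the 3 genes. DESeq2 on all 45 fish added *vwf* in LP20 (2.25) and on the slope (0.502), and on 18 fish *plvapb* (1.222) and *vwf* (2.246) in LP20 and *vwf* (1.127) in LP100. The exact permutation test was under 0.05, unadjusted, also for *plvapb* in LP20 (1.146) and MG (0.929) and for *vwf* in LP20 (1.733) and LP100 (0.938). Counts summed per label run ended the LP100 calls of *plvapb* (1.562) and *pecam1a* (1.619). The smooth muscle minus enterocyte covariate ended every call of the 3 genes and of all other genes, with 0.975 (*plvapb*) and 1.035 (*pecam1a*) in LP100, 0.613, 0.795 and 1.953 (*vwf*) in LP500 and 0.175 and 0.256 on the slope, and the cause was not tested.

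With a fish or a label run left out, *plvapb* ranged from 1.0 to 1.698 in LP20, 1.327 to 2.045 in LP100, 1.216 to 1.928 in LP500 and 0.345 to 0.519 on the slope. *Pecam1a* ranged from 1.355 to 2.113 in LP100, 1.428 to 2.197 in LP500 and 0.426 to 0.616 on the slope, and *vwf* from 1.947 to 2.457 in LP20, 1.737 to 2.732 in LP500 and 0.296 to 0.601 on the slope. Without single fish no LP500 call was lost in 45 refits per gene. Of these, only the refits without a fish of CD or LP500 took a fish out of that comparison. The others reach it only through the filter, the scaling and the shared spread. No LP500 call of these genes was left without label run 1 of CD. In LP100, without single fish, *plvapb* was lost in 4 refits (A003, A050, A074 of CD, A037 of LP100) and *pecam1a* in 10 (A001, A002, A003, A049, A050, A074 of CD, A033, A037, A039, A062 of LP100).

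The genes called higher were 0 for LP20 (163 by DESeq2 on 45 fish, 648 on 18, 13 with no filter, 6 at a mean of 1 CPM), 1142 for LP100 (1789, 2700, 1749 by edgeR on 18 fish, 12 per label run), 2365 for LP500 (1539 by edgeR on 18 fish), 0 for MG (2 by DESeq2 on 18 fish) and 2287 on the slope. The genes called lower were 0 for LP20 (20 and 159 by DESeq2), 150 for LP100 (279 and 889 by DESeq2, 505 by edgeR on 18 fish, 91 without TMM, 83 with no filter, 3 per label run), 1020 for LP500 (436 by edgeR on 18 fish, 389 without TMM, 570 per label run) and 1054 on the slope (474 without TMM), and with the covariate all these counts were 0. Without a fish the counts higher ranged from 0 to 498 for LP20 (498 without A073 of CD), 0 to 1985 for LP100, 1312 to 3103 for LP500 and 1107 (without A013) to 3072 on the slope, and without a label run from 0 to 20, 0 to 1571, 3 to 2980 and 0 to 2495 (3 for LP500 and 0 on the slope without label run 1 of CD). Of the 18 genes of the endothelium list, DESeq2 on 45 fish called 1 higher in LP20, beside 163 of 53928 genes. On 18 fish it called 6 of the 18, beside 648 of 51273 genes. In LP100 per label run the list had 0 called, beside 12 of all genes, where the main fit called 7 of the list. With the covariate it had 0 in all diets.

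No paired analysis was possible because fish of different diets carry different numbers in the labels. Depth limits *vwf* and *pecam1a* most, at 2 fragments in the lowest fish.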
